A study of Mus musculus with 12 samples.

Results

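The genes described are 10 transcription factor genes of the immediate early response in mouse kidney: the Fos family genes Fos, Fosb, Fosl1 and Fosl2, the Jun family genes Jun and Junb, the related factor Atf3, the small Maf gene Maff, and Egr1 and Myc. They were chosen by symbol, and each of the 10 was found in 1 row of the 56748 genes of the deposited expression table. The study made RNA sequencing libraries from kidneys of male mice aged 8 to 12 weeks, with 3 libraries in each of 4 groups. WT sham and WT IR mice carried the wild type genotype. cKO sham and cKO IR mice lacked Krt20 in renal proximal tubular cells. IR mice, anesthetized with pentobarbital, had the vessels of both kidneys clamped for 30 minutes and were killed after 24 hours of reperfusion (ischemia/reperfusion, IR), and sham mice had the surgery without the clamps. The labels name neither the Cre driver of the cKO nor whether the 3 libraries of a group came from separate animals, so the p-values below measure the spread between these libraries only.

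AP-1 is a dimer of basic leucine zipper proteins. Fos family proteins bind DNA only with a partner, usually from the Jun family, while Jun proteins also pair with each other and with ATF proteins such as ATF3. MAFF is a small Maf protein with a DNA-binding zipper but no activation domain, and it acts as the partner of NRF2 and other cap'n'collar factors or, paired with itself, as a repressor. EGR1 is a zinc finger factor and MYC a helix-loop-helix zipper factor that drives ribosome and nucleolus genes. Most of these genes are transcribed within minutes of a stimulus, through MAP kinases acting on serum response factor and on CREB, and their mRNAs decay quickly. In the injured kidney, AP-1, ATF3 and MYC genes are well known to be expressed in stressed tubules.

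Levels are given as FPKM, fragments scaled by gene length and by library size, so that levels of different genes can be set beside each other per length. Every FPKM value times the gene's length was a whole multiple of the value of 1 read in its library, and the 12 libraries held 13187531 to 15962303 reads by that count. A floor of 3 reads corresponded to 0.176 to 0.226 FPKM for a gene of 1 kilobase. Krt20 was at 0 to 0.157 FPKM in the 6 sham libraries, at 59.9 to 84.0 in WT IR and at 28.2 to 47.0 in cKO IR. The groups thus differed in the direction of their labels after IR, with Krt20 reads remaining in whole cKO kidney. The extraction text of the labels speaks of retinas, but the 5 proximal tubule markers summed to 370 FPKM or more in every library, while 6 retina markers stayed at 0.449 FPKM or less, 2 of them at 0 throughout. Between sham and IR the tissue changed: the proximal tubule markers summed to 2086 to 2405 FPKM in WT sham, 575 to 1361 in WT IR, 1767 to 2306 in cKO sham and 370 to 648 in cKO IR, with none of 5 at 0. The 6 neutrophil markers summed to 1.81 to 2.10, 10.1 to 48.4, 2.21 to 2.81 and 16.6 to 22.3 FPKM in the same order, and the 7 macrophage markers to 46.7 to 64.0, 44.2 to 107, 44.4 to 68.6 and 85.1 to 112. The macrophage markers did not move together: after IR, Cd14 (2.12 in WT, 3.43 in cKO, as log2 differences) and Cd68 (1.82 and 1.74) rose and Csf1r fell (-1.31 and -1.19) in both genotypes, Lyz2 rose in cKO (1.74), and the other 3 were not called. The part of cell composition in the changes below was not tested, and in whole tissue fewer cells of a type and less RNA per cell cannot be told apart.

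In uninjured WT kidney the order of the genes by level ran from Jun at 27.7 ± 8.54 FPKM (SD, n = 3), through Egr1 at 14.5 ± 12.0 and Junb at 14.0 ± 7.24, to Fosb at 0.274 ± 0.196 and Fosl1, which had no read. Neighbours in the order Jun, Egr1, Junb overlapped between libraries, as did neighbours in the order Fos, Fosl2, Myc, Atf3, Maff, which were at 2.72 down to 0.967 FPKM on average. In cKO IR the order began with Junb at 53.8 ± 13.2, Jun at 42.4 ± 8.12 and Myc at 32.1 ± 4.65 FPKM, each overlapping the next. Fosb was lowest in both IR groups, at 0.0921 ± 0.0754 in WT IR and 0.270 ± 0.0848 in cKO IR. Summed over the 10 genes, the level was 45.2, 102 and 52.7 FPKM in WT sham libraries 1, 2 and 3, 171, 91.0 and 122 in WT IR, 35.1, 33.0 and 26.7 in cKO sham, and 175, 233 and 169 in cKO IR. WT sham library 2 was therefore above WT IR library 2, whereas the cKO IR libraries all lay far above the cKO sham libraries.

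**Figure D1:**
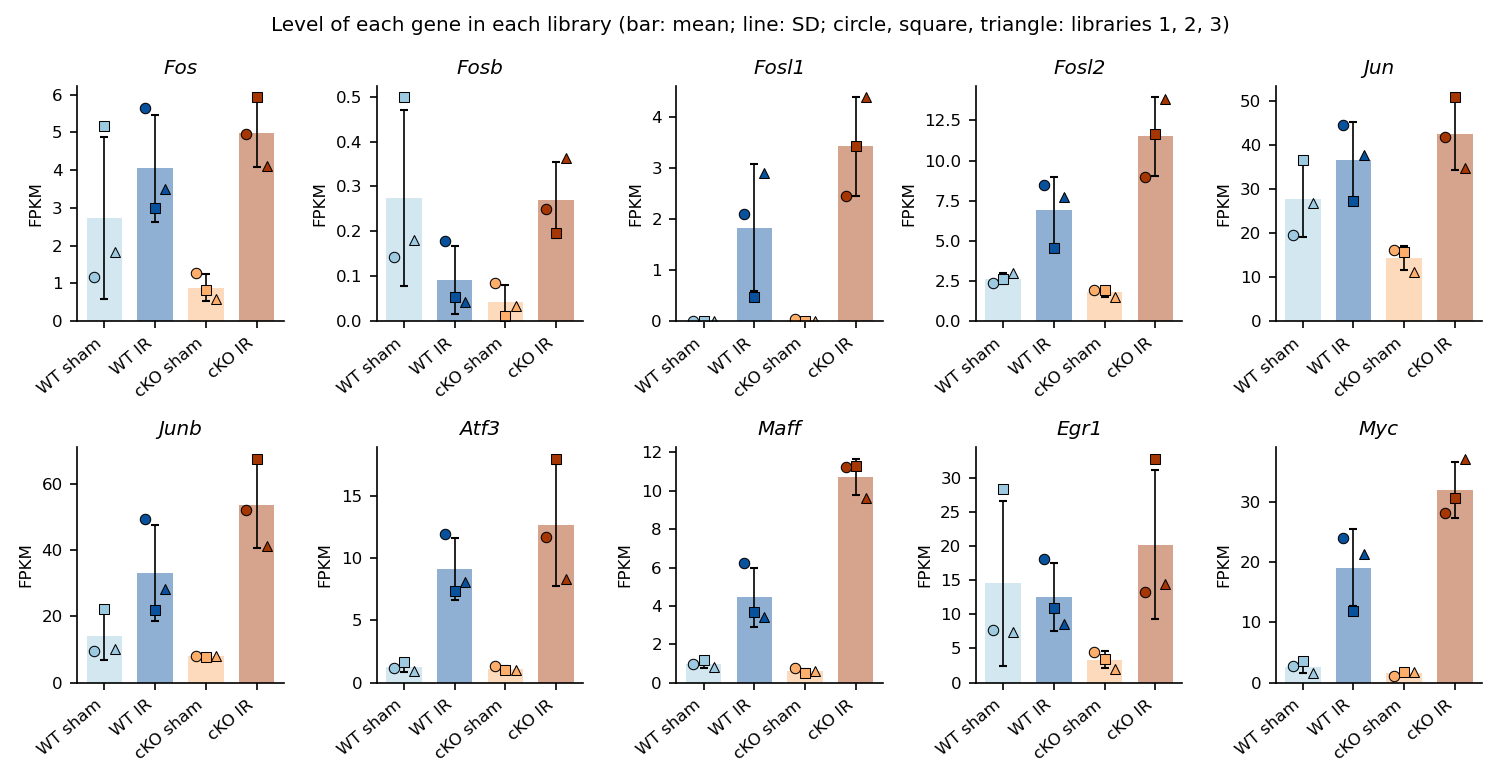
FPKM (y axis, linear, from 0) of each of the 10 genes in the 12 libraries; bars are group means, lines are SD, and circles, squares and triangles are libraries 1, 2 and 3 of a group. WT sham library 2 (square) stands above the other WT sham libraries for Fos, Fosb, Jun, Junb and Egr1, and Maff separates cKO IR (9.63 to 11.3 FPKM) from WT IR (3.40 to 6.23).

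The first question was how far IR changed these genes at 24 hours in each genotype. Differences were tested with limma on log2(FPKM + 1) over the 12868 genes whose average across the libraries reached 1 FPKM, with all 12 libraries in 1 fit and Benjamini-Hochberg adjustment over all genes tested, and a gene was called under an adjusted p of 0.05. On this scale the change of a low gene is understated. Of the 10 genes 9 passed the filter and Fosb did not. Fosl1 and Maff passed only through their IR levels, so their counts below are a description. In WT, 6 of the 9 rose, against 22.6% of all tested genes, and none fell, against 19.5%. In cKO all 9 rose, against 27.8% of all tested genes, and the share that fell among all genes was 23.1%. The median log2 difference of the 9 was 1.21 in WT and 2.21 in cKO, beside 0.01 and 0.02 over all tested genes. The IR and sham groups did not overlap, with IR higher, for 5 of the 10 genes in WT and for 10 of 10 in cKO. Over all tested genes the same held for 28.0% in WT and 32.6% in cKO. An exact permutation test of 3 libraries against 3 cannot go below p = 0.1.

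Fos, the founding Fos family gene (chromosome 12, 85520664 to 85524047, as deposited), was at 1.17, 5.18 and 1.83 FPKM in libraries 1, 2 and 3 of WT sham and at 5.65, 3.0 and 3.49 in WT IR. WT sham library 2 was above 2 of the 3 WT IR libraries, so the groups overlapped. In cKO the levels were 1.26, 0.819 and 0.583 in sham and 4.95, 5.94 and 4.10 in IR, without overlap. The WT log2 difference was 0.55 (SE 0.34), with a limma adjusted p of 0.215. Without WT sham library 2 it was 0.99, with an adjusted p of 0.0116. In cKO Fos rose by 1.67 (SE 0.34), with a limma adjusted p of 0.00203.

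Fosb, which encodes a close relative of FOS (chromosome 7, 19036621 to 19043976), was the lowest of the genes after IR. It read 0.142, 0.499 and 0.181 FPKM in WT sham, 0.179, 0.0543 and 0.0431 in WT IR, 0.0847, 0.0110 and 0.0330 in cKO sham, and 0.251, 0.197 and 0.363 in cKO IR. These levels rest on 1 to 45 reads a library. The WT mean was lower in IR than in sham, with overlap and an exact permutation p of 0.2 (two-sided), while the cKO groups did not overlap and gave the smallest p the exact test allows, 0.1. Over the 31723 genes with any read, limma gave Fosb a log2 difference of -0.21 in WT (adjusted p 0.189) and 0.28 in cKO (adjusted p 0.0695).

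Fosl1, which encodes FRA-1, a family member that lacks the activation domain of FOS, lies on chromosome 19 at 5497575 to 5505974. Of its reads, 1 lay in a sham library and the others in the IR libraries. WT sham had 0 reads in each library, and cKO sham had 1, 0 and 0. WT IR had 73, 14 and 88 reads and cKO IR 80, 108 and 138. As levels, these were 2.11, 0.467 and 2.91 FPKM in WT IR and 2.46, 3.43 and 4.40 in cKO IR. WT IR library 2 was the lowest IR library by far. Against the floor of 3 reads per library, the WT IR mean was at least 16.4-fold higher than WT sham. In cKO the ratio of IR to sham reads, each pooled over 3 libraries and divided by their pooled depth, was 308, and counting error alone put its exact 95% interval at 54.8 to 12187. The log2 differences were 1.39 in WT (SE 0.30, limma adjusted p 0.00421) and 2.11 in cKO (limma adjusted p 0.000234). Fosl1 shares 2767 bases of its span with Ccdc85b on the other strand. Ccdc85b was at 2.87 to 3.54 FPKM in WT sham, 3.55 to 4.85 in WT IR, 3.81 to 4.16 in cKO sham and 4.45 to 5.42 in cKO IR, and the strand of counting is not given in the sources used here.

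Fosl2 encodes FRA-2, which like FRA-1 lacks the activation domain of FOS. Its levels on chromosome 5 (32293145 to 32315186) were 2.34, 2.62 and 2.98 FPKM in WT sham and 8.49, 4.52 and 7.71 in WT IR. In cKO they were 1.97, 1.92 and 1.47 in sham and 8.98, 11.7 and 13.9 in IR. Neither genotype showed overlap between sham and IR. It rose by 1.08 in WT (SE 0.20, limma adjusted p 0.00179) and by 2.15 in cKO (limma adjusted p 2.04e-05).

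By composition, the summed Fos family level was made mostly of Fosl2, whose share was 51.7 to 56.3% in WT IR and 54.0 to 61.0% in cKO IR. Fosl1 went from 0% in WT sham to 5.80 to 20.6% in WT IR, and from 0 to 0.971% in cKO sham to 14.8 to 19.3% in cKO IR. Fos made up 31.9, 62.4 and 36.7% of the family in WT sham libraries 1, 2 and 3, and 18.1 to 29.7% in cKO IR. Fosl2 exceeded Fos in 11 of the 12 libraries; in WT sham library 2 the ratio of Fosl2 to Fos was 0.507, and elsewhere it was 1.5 to 3.38.

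**Figure D2:**
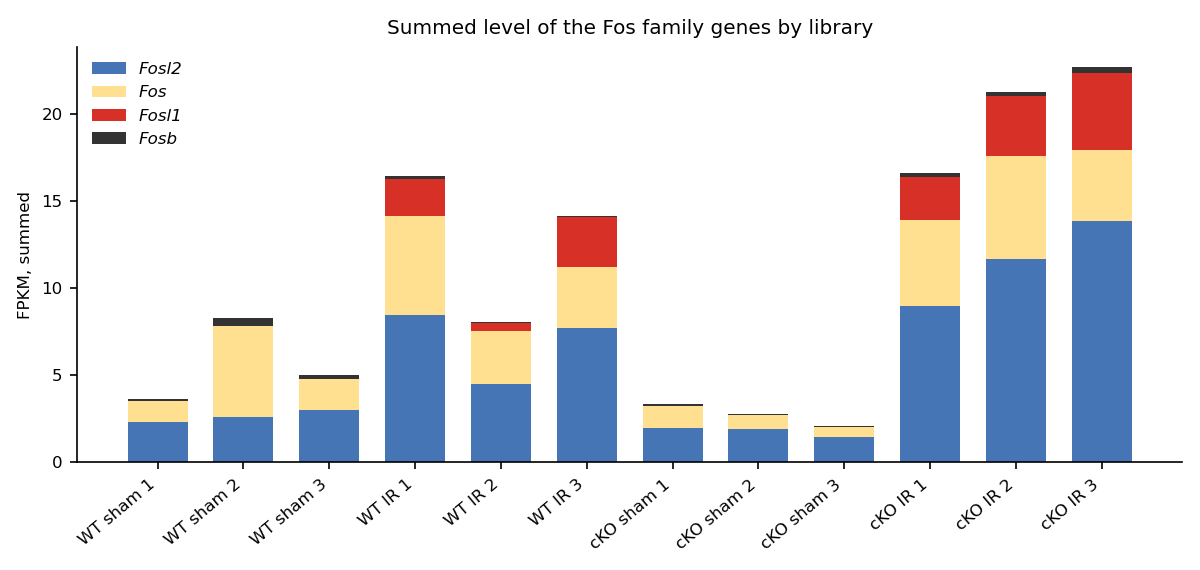
Summed FPKM of the Fos family (y axis, from 0) in each of the 12 libraries (x axis), split by gene. Fosl1 (red) is visible in the 6 IR libraries alone, least in WT IR library 2 at 0.467 FPKM, and Fos (yellow) takes 62.4% of the family in WT sham library 2.

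Jun, the main partner of the Fos proteins, lies on chromosome 4 at 94937271 to 94940459 and was the highest of the 10 genes in 3 of the 4 groups. Its levels were 19.6, 36.6 and 26.8 FPKM in WT sham and 44.5, 27.2 and 37.7 in WT IR, which overlapped. In cKO they were 16.1, 15.7 and 11.2 in sham and 41.7, 50.8 and 34.7 in IR, which did not. The WT log2 difference was 0.40 (SE 0.25, limma adjusted p 0.213). Without WT sham library 2 it was 0.62 (adjusted p 0.0747). Leaving out both WT libraries numbered 2, a choice made after seeing the data, gave 0.81 (adjusted p 0.02). In cKO Jun rose by 1.5 (limma adjusted p 0.000567).

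Junb, which encodes a Jun protein often counted as an antagonist of JUN, lies on chromosome 8 at 85701113 to 85705347. It was at 9.46, 22.3 and 10.1 FPKM in WT sham and at 49.7, 21.9 and 28.3 in WT IR. WT sham library 2 and WT IR library 2 met at nearly the same level, and the other libraries were apart. The cKO sham libraries lay close together at 8.01, 7.80 and 8.05 FPKM, far under 52.2, 67.8 and 41.5 in cKO IR. Junb rose by 1.21 in WT (SE 0.34, limma adjusted p 0.0145) and by 2.59 in cKO (limma adjusted p 0.000139). The WT call was lost without WT sham library 1 (1.01, adjusted p 0.0574), WT sham library 3 (1.05, adjusted p 0.0568) or WT IR library 1 (0.89, adjusted p 0.0579), and where only the 2 WT groups were fitted (adjusted p 0.056). It shares 351 bases with Prdx2 on the other strand, which was at 45.2 to 50.1 FPKM in WT sham, 39.2 to 46.6 in WT IR, 42.7 to 44.3 in cKO sham and 41.9 to 49.1 in cKO IR. The ratio of Junb to Jun was 0.378 to 0.717 in the sham libraries, 0.750 to 1.12 in WT IR and 1.2 to 1.33 in cKO IR, so Junb exceeded Jun in each cKO IR library and in 1 of 3 WT IR libraries.

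Atf3 encodes a stress-induced partner of JUN that often represses, and lies on chromosome 1 at 190902493 to 190950236. Its levels were 1.13, 1.64 and 0.945 FPKM in WT sham, 12.0, 7.33 and 8.06 in WT IR, 1.35, 0.990 and 0.987 in cKO sham, and 11.7, 18.0 and 8.30 in cKO IR. Sham and IR were far apart in both genotypes, and the 2 IR groups overlapped. It rose by 2.16 in WT (SE 0.24, limma adjusted p 0.000124) and by 2.64 in cKO (limma adjusted p 2e-05). Atf3 was at 2.02 to 3.03 times the level of Fos in the 6 IR libraries.

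Maff (chromosome 15, 79230821 to 79243276) was at 0.942, 1.17 and 0.785 FPKM in WT sham and at 6.23, 3.68 and 3.40 in WT IR. In cKO it was at 0.739, 0.477 and 0.582 in sham and at 11.3, 11.3 and 9.63 in IR. The IR libraries lay above the sham libraries in each genotype, and each cKO IR library lay above each WT IR library. Maff rose by 1.44 in WT (SE 0.17, limma adjusted p 0.00016) and by 2.87 in cKO (limma adjusted p 2.38e-06).

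Egr1 (chromosome 18, 34992876 to 34998037) varied widely between libraries of a group. It read 7.73, 28.4 and 7.43 FPKM in WT sham and 18.1, 10.9 and 8.54 in WT IR. WT sham library 2 was above all WT IR libraries, and the other WT sham libraries were below them. In cKO it was at 4.49, 3.50 and 2.05 in sham and at 13.3, 32.8 and 14.5 in IR, without overlap. The WT log2 difference was 0.00 (SE 0.50, 95% interval -1.10 to 1.11, limma adjusted p 0.997), and without WT sham library 2 it was 0.59 with an adjusted p of 0.283. In cKO Egr1 rose by 2.21 (SE 0.50, limma adjusted p 0.00386).

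Myc (chromosome 15, 61857240 to 61862223) had the largest difference of the 9 tested genes in each genotype on the log2(FPKM + 1) scale, which understates the change of low genes. By the ratio of mean FPKM, Myc was at 7.33 in WT and 21.0 in cKO, Atf3 at 7.36 and 11.4, and Maff at 4.59 and 17.9. Fosl1 was above each of these genes. The levels of Myc were 2.67, 3.52 and 1.64 FPKM in WT sham and 24.0, 11.9 and 21.4 in WT IR. In cKO they were 1.09, 1.77 and 1.72 in sham and 28.3, 30.7 and 37.3 in IR. No IR library came near a sham library, and WT IR library 2 was the lowest of the 6. The rise was 2.46 in WT (SE 0.26, limma adjusted p 8.16e-05) and 3.71 in cKO (limma adjusted p 4.4e-06).

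**Figure D3:**
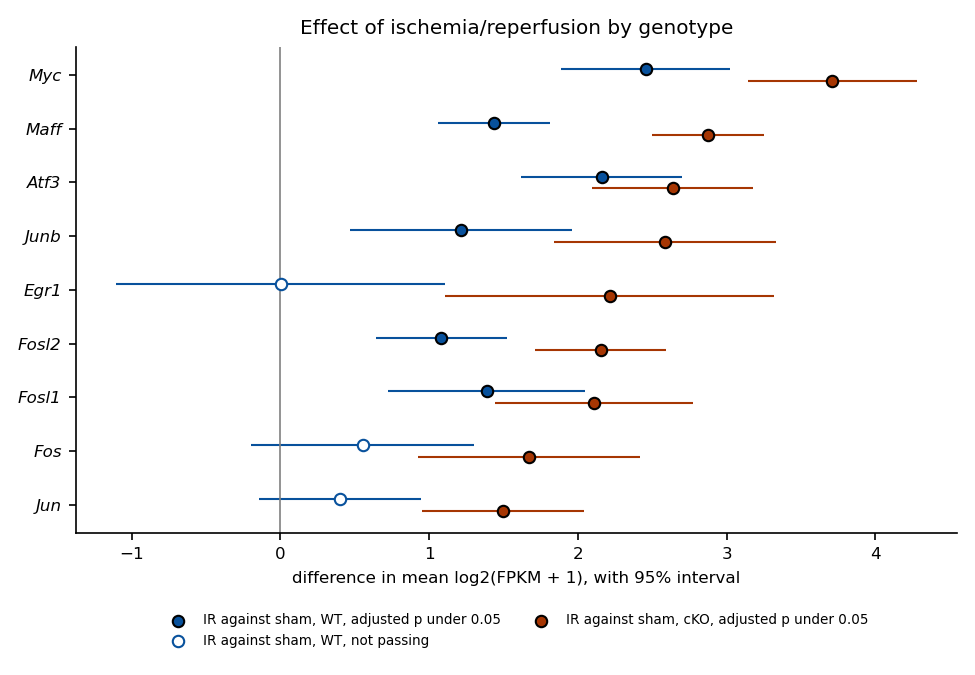
Log2 difference of IR minus sham (x axis, on log2(FPKM + 1)) with its 95% interval for the 9 tested genes (y axis), in WT (blue) and cKO (brown). Filled points have an adjusted p under 0.05: all 9 in cKO, and in WT all but Egr1, Fos and Jun.

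The bases before the start sites are shown for Fos, Jun, Atf3 and Maff. In these genes a sequence resembling the cAMP response element (CRE), bound by CREB and ATF family dimers, lies close to the start. Whether these sites have a part in the changes of level was not tested. RefSeq promoter windows on GRCm38.p6 matched 7 of the 10 genes by symbol: Fos, Fosb, Fosl2, Jun, Junb, Atf3 and Maff, the last with 3 start sites. Each line gives the 120 bases before the start site, 5′ to 3′ on the strand of the gene. Capitals mark TGACGT or its reverse complement ACGTCA (the core of the CRE), the whole CRE TGACGTCA, or TGACATCA, the variant known from the Jun promoter. Only start site 2 of Maff carries the whole CRE. Fosb, Fosl2, Junb and start site 1 of Maff held none of these sequences and are not shown. The coordinates are those of GRCm38.p6, a build that was not established for the deposited gene positions above.
Fos, chr12:85473770-85473889, plus strand: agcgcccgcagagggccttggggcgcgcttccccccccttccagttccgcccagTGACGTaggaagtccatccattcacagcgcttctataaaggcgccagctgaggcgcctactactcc
Jun, chr4:95052223-95052342, minus strand: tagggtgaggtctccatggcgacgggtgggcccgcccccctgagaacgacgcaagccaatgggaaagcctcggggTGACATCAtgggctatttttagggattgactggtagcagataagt
Atf3, chr1:191183334-191183453, minus strand: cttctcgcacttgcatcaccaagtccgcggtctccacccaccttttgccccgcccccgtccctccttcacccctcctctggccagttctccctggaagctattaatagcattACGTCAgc
Maff, start site 2, chr15:79347400-79347519, plus strand: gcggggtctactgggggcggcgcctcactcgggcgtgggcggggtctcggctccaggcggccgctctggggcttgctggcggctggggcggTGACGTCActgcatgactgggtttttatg
Maff, start site 3, chr15:79348282-79348401, plus strand: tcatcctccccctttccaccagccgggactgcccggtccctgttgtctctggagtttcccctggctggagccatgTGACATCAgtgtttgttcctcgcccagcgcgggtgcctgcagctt

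In Fos the core lies 66 to 61 bases before the start site, in Jun the variant 45 to 38 bases before it, and in Atf3 the reversed core 8 to 3 bases before it. Maff has the CRE at 29 to 22 bases before its start site 2 and the Jun variant at 45 to 38 bases before its start site 3, the same distance as in Jun. Both strands of the 250 bases before each start were searched, and the same was done for 32851 windows of all genes. A gene was counted if any of its windows held the motif, and Maff has 3 windows. The shares are of single windows, so gene counts and window shares are not like measures. The CRE TGACGTCA was in 1 of the 7 genes and 1.55% of all windows, its core TGACGT, which the CRE contains, in 3 of 7 and 6.47%, and TGACATCA in 2 of 7 and 2.93%. The last 2 patterns were added after these windows had been looked at. The AP-1 motif TGANTCA was in 0 of 7 genes and 6.75% of windows, the E-box CACGTG in Maff alone and 6.02%, and the CArG box, the binding motif of serum response factor, in 0 of 7 and 1.47%. No match means only that these letters are not in the window, and the gene levels do not separate start sites.

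The second question was whether the genes differed between genotypes without injury. Of the 9 tested genes 0 were called in cKO sham against WT sham by limma, against 1.10% of all tested genes, and 0 by limma-voom on reads. At an unadjusted p under 0.05 there were 3 of 9, Fos, Jun and Egr1, beside 11.4% of all tested genes. The median of the 9 was -0.49, beside 0.00 over all genes. Egr1 differed most, at 3.35 ± 1.23 FPKM in cKO sham against 14.5 ± 12.0 in WT sham (SD, n = 3), a log2 difference of -1.61 (SE 0.50, limma adjusted p 0.205). Jun was at 14.4 ± 2.72 against 27.7 ± 8.54 FPKM, a difference of -0.87 (SE 0.25, limma adjusted p 0.158). Fos differed by -0.85 (adjusted p 0.353), Junb by -0.64 (0.541), Myc by -0.49 (0.54), Fosl2 by -0.39 (0.527), Maff by -0.30 (0.593), Atf3 by -0.08 (0.964) and Fosl1 by 0.02 (0.995).

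For 6 of the 10 genes, Fosb, Fosl2, Jun, Junb, Maff and Egr1, each cKO sham library lay under each WT sham library, against 12.0% of all tested genes. WT sham library 2 moved with these differences. It was the highest WT sham library for 8 of the 10 genes and for 17 of the 22 other tested immediate early genes, as it was for 33.5% of all tested genes. Without it, the difference was -1.02 for Egr1 (adjusted p 0.512), -0.66 for Jun (0.46), -0.41 for Fos (0.764), -0.27 for Junb (0.957) and 0.05 for Atf3 (1). Its proximal tubule markers summed to 2157 FPKM, between 2086 and 2405 in the other WT sham libraries, and its macrophage markers to 50.7, between 46.7 and 64.0. Its endothelium markers summed to 42.5 FPKM, against 56.7 and 54.7 in WT sham libraries 1 and 3. It was also the lowest WT sham library for thick ascending limb and collecting duct, podocyte, neutrophil, stroma and red blood cell markers. Lymphocyte markers were highest in it, at 4.60 against 4.14 and 3.81 FPKM. The part of its cell make-up in these differences was not tested.

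The third question was whether the genes differed between genotypes after IR. All 10 had a higher mean in cKO IR than in WT IR, but limma called 0 of the 9 tested, as it called 0 of all 12868 genes (0%). At an unadjusted p under 0.05 there were 4 of 9 (Maff, Fosl2, Myc and Fosl1) and 1926 genes in all, 15% of those tested. Limma-voom on reads called 0 of the 9 and 1 gene in all. Maff stood second of all genes by p, after Pdp2, with 10.7 ± 0.948 FPKM in cKO IR against 4.44 ± 1.56 in WT IR (SD, n = 3) and a log2 difference of 1.14 (SE 0.17, limma adjusted p 0.132). Without WT IR library 1, the highest of its group, the difference was 1.37, with an adjusted p of 0.00395. Over the alternatives its adjusted p ranged from 0.00395 to 0.592.

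Myc was at 32.1 ± 4.65 against 19.1 ± 6.39 FPKM, a difference of 0.76 (SE 0.26, limma adjusted p 0.228), and Fosl2 at 11.5 ± 2.44 against 6.91 ± 2.10, a difference of 0.68 (SE 0.20, limma adjusted p 0.185). Fosl1 differed by 0.74 (0.285), Junb by 0.73 (0.34), Egr1 by 0.60 (0.615), Atf3 by 0.40 (0.476), Fos by 0.27 (0.748) and Jun by 0.22 (0.715). The 95% intervals of Fos (-0.48 to 1.02), Jun (-0.32 to 0.77) and Egr1 (-0.51 to 1.70) include 0 and also differences of over 0.5. Each cKO IR library lay above each WT IR library for 4 of the 10 genes, Fosb, Fosl2, Maff and Myc, against 10.2% of all tested genes.

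WT IR library 2 moved with this difference too. It was the lowest WT IR library for 7 of the 10 genes and for 17 of the 22 other immediate early genes, as it was for 39.4% of all tested genes, and it was the highest for none of the 10 and none of the 22. Its proximal tubule markers summed to 1361 FPKM, against 769 and 575 in WT IR libraries 1 and 3, and its macrophage markers to 44.2, against 93.4 and 107. Its neutrophil markers summed to 10.1, against 15.9 and 48.4. Thick ascending limb and collecting duct markers were highest in it, at 971 FPKM against 629 and 546. Endothelium markers were lowest in it, at 17.6 against 35.6 and 62.3, as were stroma, podocyte and lymphocyte markers. Red blood cell markers lay between those of the other WT IR libraries. WT IR library 1 was the highest for 9 of the 10 genes, against 28.7% of all tested genes. Leaving out both WT libraries numbered 2, Myc differed by 0.47 (adjusted p 0.41), Fosl2 by 0.44 (0.404) and Fosl1 by 0.32 (0.547) between the IR groups, and Maff by 1.05 (0.366). The part of these libraries' cell make-up in the result was not tested.

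**Figure D4:**
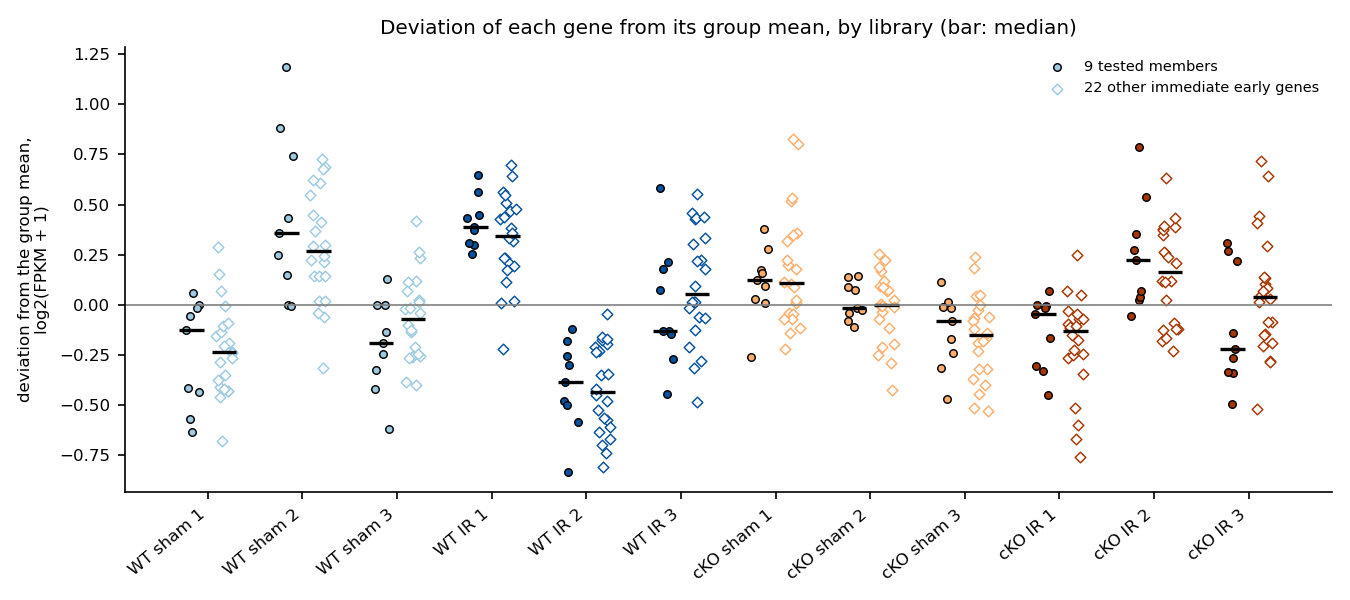
Deviation of each gene from its group mean on log2(FPKM + 1) (y axis) in the 12 libraries (x axis), for the 9 tested genes (circles) and 22 other immediate early genes (diamonds); bars are medians. The medians of the 9 genes are 0.36 in WT sham library 2, 0.39 in WT IR library 1 and -0.38 in WT IR library 2, and those of the other immediate early genes are 0.27, 0.34 and -0.43.

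The last question was whether the IR effect itself differed between genotypes, tested as the interaction, the log2 IR effect in cKO minus that in WT. This comparison uses the same 12 libraries as those above, so it is not independent of them. Maff, 1 of the 9 tested genes, was called, against 0.878% of all tested genes. It entered the tested genes through its IR levels, with sham means of 0.967 and 0.599 FPKM, and without a filter on low values it was not called (adjusted p 0.0543), so the call is given as a description. The IR effect on Maff was larger in cKO by 1.44 (SE 0.24, limma adjusted p 0.0216), with a higher level in 3 of 3 cKO IR libraries and a lower one in 3 of 3 cKO sham libraries than in any WT library of the same treatment. The call was lost without WT sham library 2 (1.36, adjusted p 0.0722), cKO sham library 2 (1.38, 0.0748), cKO sham library 3 (1.43, 0.0616) or cKO IR library 1 (1.41, 0.0698). It was also lost with limma-voom on reads (1.89, adjusted p 0.0796). Over 19 alternatives the adjusted p ranged from 0.00247 to 0.104, and without 1 library the difference ranged from 1.30 to 1.66.

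The other 8 tested genes had interaction differences above 0 that did not pass: 2.21 for Egr1 (SE 0.71, adjusted p 0.178), 1.37 for Junb (0.213), 1.26 for Myc (0.138), 1.12 for Fos (0.316), 1.10 for Jun (0.175), 1.07 for Fosl2 (0.108), 0.72 for Fosl1 (0.475) and 0.48 for Atf3 (0.572). At an unadjusted p under 0.05 there were 7 of 9, beside 14.6% of all tested genes, and the median of the 9 was 1.12 beside 0.03. Without WT sham library 2, the interaction was 1.62 for Egr1, 1.0 for Junb and 0.68 for Fos.

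**Figure D5:**
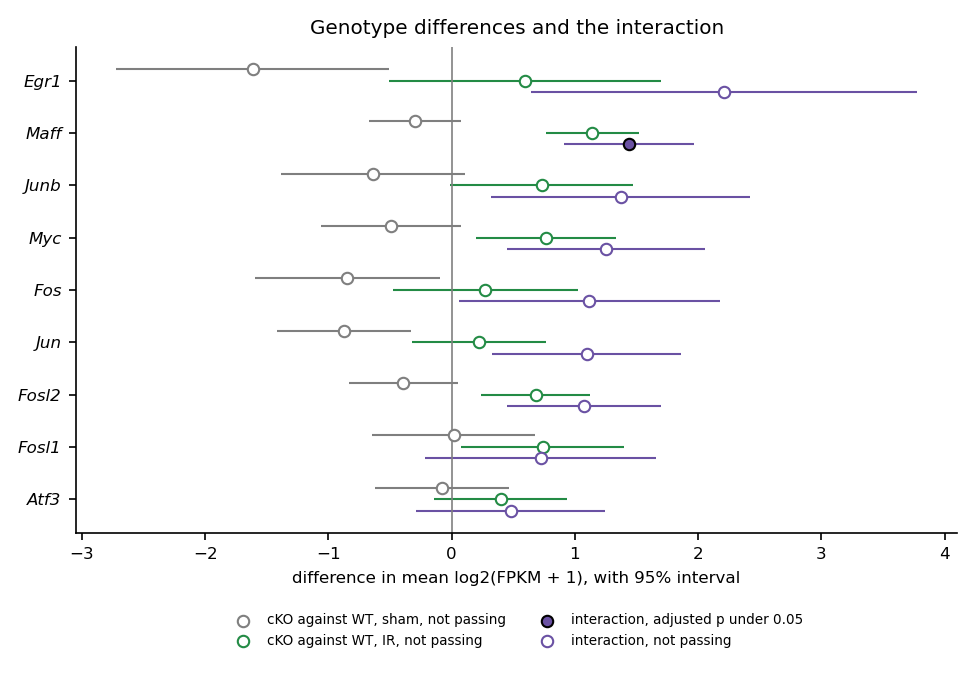
Log2 differences (x axis, on log2(FPKM + 1)) with 95% intervals for the 9 tested genes (y axis): cKO minus WT in sham (grey), cKO minus WT after IR (green) and the interaction (purple). The interaction of Maff, at 1.44, is the only filled point, with an adjusted p under 0.05.

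Among the other AP-1 and Maf factors, Jund, the steadily expressed Jun family gene, rose from 22.0 to 24.6 FPKM in WT sham to 30.1 to 38.5 in WT IR (0.48, limma adjusted p 0.00939) and by 1.15 in cKO (3.97e-05). Maf, which encodes a large Maf protein with an activation domain, fell by 0.77 in WT (adjusted p 0.00152) and by 1.13 in cKO (9.38e-05). Of the other small Maf genes, Mafk fell by 0.27 in WT (adjusted p 0.0467), a call that 11 of 15 alternatives lost, and rose by 0.40 in cKO (0.0052), and Mafg had a difference of 0.02 in WT (0.854) and rose by 0.41 in cKO (0.00171).

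Of 22 other tested immediate early genes, 11 rose and 3 fell in WT and 19 rose and 0 fell in cKO, with medians of 0.72 and 1.62. The count of 11 was 7 without WT sham library 1, without WT IR library 1, or with the WT groups fitted alone. Ccn1, a matricellular protein gene, went from 14.8 to 30.8 FPKM in WT sham to 117 to 132 in WT IR (2.58, adjusted p 4.51e-05). Socs3, the cytokine feedback inhibitor, and Klf6, an injury-response zinc finger factor, rose by 2.50 (6.36e-05) and 2.24 (0.000169). Cebpb and Cebpd, zipper factors of the acute phase, and the kinase gene Plk3 had the smallest p of the list between the IR groups, at 0.96 (adjusted p 0.135), 0.91 (0.183) and 1.13 (0.205). Named after their values were seen, the nuclear receptor gene Nr4a1 and Csrnp1 were lower in cKO sham than in WT sham, by -1.99 (0.00587) and -1.26 (0.0127), and had interactions of 2.35 and 1.72 (both 0.0209). These were the only calls of the list in those comparisons. Of the 3 genes that fell after IR in WT, Dusp1, also named after its values were seen, fell by 1.79 (0.00518). The others were Nr4a1 and Csrnp1. Nr4a1 fell by 1.39 in WT (0.00257) and rose by 0.96 in cKO (0.0136). Csrnp1 fell by 0.74 in WT (0.0135), a call that 3 of 15 alternatives lost, and rose by 0.98 in cKO (0.00213). Both interactions were lost without WT sham library 2 or 3, cKO sham library 2 or 3, or cKO IR library 3, where 0 of the 22 were called, and without WT IR library 1 there were 4. They were also lost without a filter on low values and with replicate number as a block. The sham difference of Csrnp1 was lost without WT sham library 2 or 3 or cKO sham library 2 or 3.

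Among 11 tested feedback inhibitors of MAP kinase signaling, 6 rose and 1 fell in WT and 9 rose and 0 fell in cKO. Without WT IR library 1 or WT IR library 3 the WT count was 3. Dusp5, a phosphatase for nuclear ERK, rose by 1.46 in WT (adjusted p 0.00182) and 2.65 in cKO (3.26e-05), and Spry2 by 0.47 (0.00662) and 0.75 (0.000306). Spry1 fell by 0.54 in WT (0.00767) and had a difference of 0.29 in cKO (0.0879). Dusp6, named after its values were seen, was the only gene of the list called in cKO sham against WT sham (-0.69, adjusted p 0.0178) and for the interaction (0.89, 0.0384). The sham call was lost under 6 of 15 alternatives, among them WT sham library 2 or 3 or cKO sham library 2 or 3 left out and only the groups compared. The interaction was lost under 13 of 20 alternatives, among them each left-out library but WT sham library 1. Among 21 MAP kinase cascade and serum response factor genes, 6 rose and 4 fell in each genotype, with medians of -0.04 and 0.00. Of all tested genes 22.6% rose and 19.5% fell in WT and 27.8% and 23.1% in cKO, so these counts were near the background. Scaled to library totals, 7 rose and 1 fell in WT. The stress kinase gene Map3k1 rose by 1.41 in WT (0.00022) and Map2k3 by 0.45 (0.00166), while Map2k6 fell by 0.85 (0.00266).

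Of 12 tested genes that textbooks list as AP-1 targets, 11 rose in WT and 10 in cKO, and none fell, with medians of 1.84 and 2.25. Sprr1a, a cornified envelope gene, went from 0 to 0.0919 FPKM in WT sham to 29.0 to 55.0 in WT IR (5.39, adjusted p 3.58e-07). Spp1, which encodes osteopontin, rose by 4.54 (3.59e-07) and Plaur, the urokinase receptor gene, by 2.67 (2.71e-05). Plaur, Spp1 and Hbegf had the smallest p of the list between the IR groups, at 0.78 (0.185), 0.61 (0.201) and 0.47 (0.205). Ccnd1, a cyclin gene named after its values were seen, rose by 0.88 in WT (0.000788) and had a difference of -0.15 in cKO (0.379). Its interaction of -1.04 (0.0406) was the only interaction call of the list, and 14 of 20 alternatives lost it, among them each left-out library but cKO IR library 2. Between the sham groups 2 of the 12 were called, Spp1 and Ccnd1, both higher in cKO and named there after their values were seen. Spp1 differed by 1.07 (adjusted p 0.0217), a call lost without any 1 of the 6 sham libraries and without a filter on low values. Ccnd1 differed by 0.77 (0.0259), a call that 8 of 15 alternatives lost, among them WT sham library 1 or 2 or cKO sham library 1 or 3 left out.

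Of 10 tested partners of small Maf proteins and NRF2 target genes, 5 rose in WT and 6 in cKO and none fell, with medians of 0.34 and 0.73. The shares of all tested genes that rose were 22.6% in WT and 27.8% in cKO, and 19.5% and 23.1% fell. Hmox1, the heme oxygenase gene, rose by 2.68 in WT (adjusted p 0.000184), Srxn1 by 1.85 (0.000339) and Nqo1 by 1.01 (0.000543). In cKO their rises were 3.42 (2.18e-05), 3.04 (1.11e-05) and 2.24 (3.58e-06). Nqo1 was the only gene of the list with a called interaction (1.23, adjusted p 0.0247), and this call was lost without WT sham library 2 or 3, cKO sham library 2 or 3, or cKO IR library 1, without a filter on low values, and with replicate number as a block. Txnrd1, Srxn1 and Nqo1 differed between the IR groups by 0.75 (0.135), 1.03 (0.169) and 0.59 (0.17), with 0 of 10 called.

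Of 18 textbook MYC target genes, 16 rose and 0 fell in WT, and 17 rose and 1 fell in cKO, with medians of 0.68 and 1.02. For this list and those below, the shares over all tested genes were 22.6% risen and 19.5% fallen in WT. In cKO they were 27.8% and 23.1%. The nucleolar genes Nop56, Nop58 and Nolc1 rose by 1.62 (adjusted p 3.36e-05), 1.27 (9.35e-05) and 0.97 (7.97e-05) in WT. Odc1, the polyamine enzyme gene that fell in cKO (-0.61, adjusted p 0.044), was named after its values were seen. Its call was lost under 7 of 14 alternatives. These were cKO sham library 2 or 3 or cKO IR library 2 or 3 left out, no filter on low values, only the groups compared, and replicate number as a block. Rrs1, a ribosome biogenesis gene named after its values were seen, was lower in cKO sham than in WT sham (-0.60, adjusted p 0.00709), a call that each of 15 alternatives kept. It had an interaction of 0.83 (0.0124), which 1 of 20 alternatives lost, the one without both WT libraries numbered 2. Of 8 tested partners and antagonists in the MYC network, 0 rose and 3 fell in each genotype, but scaled to library totals 1 rose and 1 fell in WT, and without WT sham library 1 the count that fell in WT was 1. The antagonist gene Mxi1 fell by 0.39 in WT (0.00189) and by 0.44 in cKO (0.000645), and Mxd4 fell by 0.34 in WT (0.0311), a call that 9 of 15 alternatives lost. Of 9 integrated stress response genes around Atf3, 7 rose in WT and 8 in cKO. Trib3 (sham means 0.315 FPKM in WT and 0.435 in cKO) and Chac1 (0.540 and 0.525) entered the tested genes through their IR levels. These counts are therefore a description. Atf4, whose protein activates Atf3, rose by 0.91 in WT (1.74e-05), and Asns by 1.90 (0.000189). None of these lists had a call between cKO IR and WT IR.

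The genes outside the 10 whose log2 level ran most alike over the 12 libraries were sought for Maff, Myc and Fos, as a description. For Maff they were the splicing factor gene Snrpb (Pearson r 0.994), the survival gene Bcl2l1 (0.992) and Tsc22d1 (0.991). Bcl2l1 was at 36.9 FPKM in WT IR and 55.2 in cKO IR on average, against 21.2 and 20.8 in the sham groups. For Myc they were Eif4ebp1 (0.995), a regulator of translation, Eif3b (0.993), a translation initiation factor gene, and the cytokine gene Clcf1 (0.990). For Fos they were the ferritin pseudogene Ftl2-ps (0.963), whose reads may come from near-identical copies, and the immediate early genes Ier3 (0.956) and Ier2 (0.952). These correlations span 4 groups that differ in level, and the libraries share their groups.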

How the data were processed

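Gene levels of 12 libraries were read from the authors' deposited table of FPKM values. Per the submitters' processing notes, HISAT2 2.2.1 was used and the builds mm8 and mm9 are named; for the counting tool, its strand setting and the build of the gene positions no source was at hand. FPKM times gene length, in units of 1 read, lay within 5.63e-08 of whole numbers, and these recovered reads were used for depth, floors and an alternative fit. The groups follow the labels. The main test was limma 3.58.1 in R 4.3.3 with an intensity trend on log2(FPKM + 1), in genes averaging 1 FPKM or more, with 1 mean per group and 8 residual and 2.59 prior degrees of freedom, after a test on simulated data. Exact permutation tests (scipy 1.17.1, two-sided) were used for levels. Intervals and floors cover counting error only where they rest on reads. Alternatives were a pseudocount of 0.1, no filter, a filter of 5 FPKM, 2 other scalings, limma-voom on recovered reads, separate fits, a replicate block and each library left out.

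The 10 genes and all gene lists were chosen with earlier results of these data known. All 10 genes are named in every comparison. From each list, up to 3 tested genes with the smallest p in WT IR against WT sham and in cKO IR against WT IR were eligible to be named, and for Maff, Myc and Fos the 3 genes most alike. Promoter windows are RefSeq's. Marker lists of 12 cell types were summed by library, and those that bear on the results are given. A result for another gene of the AP-1 and Maf list, and that list's counts, are not reported here.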

Additional observations from a re-analysis of the deposited data

Results flagged for a closer look

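Maff was flagged because its interaction was called, at 1.44 on the log2(FPKM + 1) scale (limma adjusted p 0.0216). Its levels were 0.967 ± 0.196 and 4.44 ± 1.56 FPKM in WT sham and WT IR and 0.599 ± 0.131 and 10.7 ± 0.948 in cKO sham and cKO IR (SD, n = 3). Maff entered the tested genes through its IR levels, and without a filter on low values it was not called (adjusted p 0.0543), so the call is a description. The call was also lost without WT sham library 2 (adjusted p 0.0722), cKO sham library 2 (0.0748), cKO sham library 3 (0.0616) or cKO IR library 1 (0.0698).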

How the results depend on the processing

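Of the results for single genes under the alternatives, 674 kept their direction and side of the threshold, 11 lost their call, 4 gained one and 7 changed sign; the cause was not tested. The number of the 10 genes called for the interaction was 0 in place of 1 without a filter, with a filter of 5 FPKM (6 genes tested, Maff not among them), with limma-voom on reads, and with both WT libraries numbered 2 left out. Leaving out 1 library gave 0 to 1 for the interaction, 0 to 1 for cKO IR against WT IR (1 without WT IR library 1), 5 to 7 for IR in WT, 9 to 9 for IR in cKO, 0 to 0 for cKO sham against WT sham, and 25 to 30 genes and comparisons without overlap. Egr1 in WT was -0.022 under median-ratio scaling and -0.306 to 0.595 without 1 library. Atf3 in cKO sham against WT sham was -0.175 to 0.045 without 1 library and 0.045 without both WT libraries numbered 2, and Fosl1 was 0 to 0.023 without 1 library.

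Over all genes, scaling to library totals moved the median in WT by 0.13 and the calls to 4160 higher and 1845 lower, from 2910 and 2514. It moved the interaction calls to 29 higher and 111 lower, from 38 and 75, and limma-voom gave 4119 and 1863 in WT and 28 and 131. With only the groups compared, 251 genes were called in cKO sham against WT sham in place of 142, and 55 to 157 without 1 library. The interaction count was 41 to 150 without 1 library, lowest without WT sham library 2. With replicate number as a block, the counts among the 10 genes were 6, 9, 0, 0 and 1, the interaction of Maff was 1.44 with an adjusted p of 0.0256, and 73 genes had an interaction in place of 113. The deviations of same-numbered libraries correlated at -0.19 to 0.40, with 4 of 18 over 0.1 and the highest between WT IR and cKO IR library 3, and those of other pairs at -0.33 to 0.26, with 5 of 36 over 0.1. The numbers were not taken to pair the libraries, and 4 of 12 libraries correlated best with their own number. Depth limits Fosb and the sham levels of Fosl1, which rest on few reads.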
